A study of Homo sapiens with 24 samples.

Results

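The genes described here were 3 sestrins (SESN1, SESN2, and SESN3) and 7 further genes that act upstream of the growth kinase complex mTORC1 (DDIT4, DEPDC5, NPRL2, NPRL3, TSC1, TSC2, and RRAGD). They were taken by gene symbol from the table of raw counts, where they made up 10 of 26645 gene entries, and all 10 were among the 14741 genes that passed the filter on low counts. RNA was measured in MB468 cells (MDA-MB-468, a triple-negative breast cancer line that depends on methionine, Met) and in MB468res-R8, a single Met-independent clone obtained by growing MB468 for a long time in medium with homocysteine (Hcy), the precursor of Met. The 0 h cells grew in Met+ medium (100 µM Met). The others were collected 0.5, 2, or 12 h postmedia switch in Met-Hcy+ medium, where 370 µM DL-homocysteine took the place of Met. Each of the 8 groups had 3 libraries labelled as replicates, called cultures below, and the labels do not say how these were kept apart. Both media held dialyzed serum, vitamin B12, glutamine, and cysteine, so the groups differed by line, by medium, and by time. No library analysed here came from cells given fresh Met+ medium for 0.5, 2, or 12 h, so the loss of Met, the added Hcy, the change of medium, and the time cannot be told apart.

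mTORC1 is a kinase complex on the lysosome that promotes protein synthesis and growth when amino acids and growth factors are plentiful. Amino acids act through a pair of Rag GTPases that bring mTORC1 to the lysosome, and GATOR1, a complex of DEPDC5, NPRL2, and NPRL3, switches the Rags off. The sestrins hold back GATOR2, which restrains GATOR1, and SESN2 is also a sensor of leucine. DDIT4 (also called REDD1) is a stress-induced protein that acts through the TSC complex of TSC1, TSC2, and TBC1D7, which keeps the activator RHEB in its inactive form. RRAGD encodes a Rag GTPase that carries the amino acid signal to mTORC1, so among the 10 genes it is the one that does not act as a brake.

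Gene counts per library ranged from 11713037 to 36402932, with a median of 20452797, and 92 spike-in RNAs took 0.201 to 0.303% of the counts. The epithelial genes EPCAM, KRT8, KRT18, KRT19, and CDH1 and the basal genes EGFR and KRT5 had at least 3553 counts in every library, and KRT14 had at least 1394. PGR had at most 2 counts and ESR1 83 to 598. Of the markers of other cell types, COL1A2 (at most 1 count), PTPRC (at most 7), and CD3E (at most 2) were near 0 throughout, whereas COL1A1 had 313 to 2379 counts, PECAM1 5 to 96, PDGFRB 1 to 15, and CDH5 0 to 62. In 1 library, MB468 2 h replicate 2, the small nuclear RNA RN7SK had 8251 counts against at most 357 in the others, so results at 2 h in MB468 are also given without it. Normalized counts below are counts scaled to the mean library size by TMM, edgeR's factors, which assume that most genes do not change. Log2 fold changes come from edgeR's quasi-likelihood test on all 24 libraries. Genes with an adjusted p (Benjamini-Hochberg) under 0.05 were called. Taking spike-in totals as library sizes instead moved the median log2 change over all genes to −0.20, −0.42, and −0.23 at 0.5, 2, and 12 h in MB468 and to 0.04, −0.04, and 0.00 in MB468res-R8. All changes below are relative to the bulk of genes in the same libraries. In bulk RNA a smaller share of cells and less RNA per cell cannot be told apart.

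Of the 10 genes, 9 had at least 1 promoter window (250 bases before to 50 after a transcription start) in the RefSeq table for GRCh38.p14, giving 14 windows. The windows of SESN2 and DDIT4 are shown because these 2 genes rose most in Met-Hcy+ medium. Of the windows of TSC2, 1 is shown because it held both of the listed motifs for stress and lysosomal factors. Capitals mark motif matches, which are described next.

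SESN2, chr1:28259268-28259567, plus strand: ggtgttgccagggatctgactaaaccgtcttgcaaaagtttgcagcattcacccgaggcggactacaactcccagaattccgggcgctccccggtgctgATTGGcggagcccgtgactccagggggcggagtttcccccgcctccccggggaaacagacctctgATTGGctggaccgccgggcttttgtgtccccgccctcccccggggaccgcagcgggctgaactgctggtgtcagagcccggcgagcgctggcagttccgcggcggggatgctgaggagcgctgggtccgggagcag

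DDIT4, chr10:72273674-72273973, plus strand: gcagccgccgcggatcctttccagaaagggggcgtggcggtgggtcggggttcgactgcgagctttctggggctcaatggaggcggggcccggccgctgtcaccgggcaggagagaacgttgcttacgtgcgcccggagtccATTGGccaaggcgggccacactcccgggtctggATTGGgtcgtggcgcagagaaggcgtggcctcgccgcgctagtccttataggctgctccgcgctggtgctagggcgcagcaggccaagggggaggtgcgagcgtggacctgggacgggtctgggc

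TSC2, chr16:2047735-2048034, plus strand: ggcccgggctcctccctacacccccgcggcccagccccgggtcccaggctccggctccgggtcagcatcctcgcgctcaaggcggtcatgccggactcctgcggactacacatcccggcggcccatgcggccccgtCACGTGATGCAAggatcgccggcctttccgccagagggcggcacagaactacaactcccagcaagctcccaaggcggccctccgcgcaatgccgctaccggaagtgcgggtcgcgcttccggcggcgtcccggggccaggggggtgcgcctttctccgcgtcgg

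On either strand, 4 motifs were searched: TGATGNAA (the core of the element bound by C/EBP and ATF factors), CACGTG (the E-box of MiT/TFE factors), GTAAACA (forkhead), and TGACGTCA (the cyclic AMP element). TGATGNAA was found in 1 of the 9 genes, TSC2 (110 bases before the start of the window shown), and in 3.62% of the 35116 promoter windows of all genes. The 9 are counted by gene, some with more than 1 window, and the shares by window, so they are not on the same scale. CACGTG was found in TSC2 (114 bases before the start, sharing 2 bases with the TGATGNAA match) and NPRL3 (26 bases after it), and in 7.26% of all windows. GTAAACA and TGACGTCA, held by 3.42% and 1.85% of all windows, were found in none of the 9. The windows of SESN2 and DDIT4 held none of the 4. After these sequences were seen, CCAAT was added: SESN2 held it 151 and 86 bases before the start and DDIT4 108 and 75 bases before, all 4 on the minus strand (ATTGG in capitals). NPRL2 also held 2 matches in 1 window, and SESN1 held 1 match in each of 2 different windows. At least 1 match was found in 34.6% of all windows, and the share with 2 or more was not computed. A match is a run of letters, and binding was not measured.

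SESN2 (chr1:28259518-28282491 on GRCh38, plus strand) was the sestrin that responded most. In MB468 its normalized counts in the 3 cultures were 205.5, 174.5, and 188.3 at 0 h, 1391, 1230, and 1472 at 0.5 h, 858, 992.9, and 939 at 2 h, and 1659, 1517, and 1532 at 12 h. Every culture in Met-Hcy+ medium lay above every culture at 0 h, with a dip at 2 h between higher levels. In MB468res-R8 the counts were 358.4, 358, and 377.9 at 0 h, 951.7, 1048, and 1120 at 0.5 h, 415.8, 408.3, and 308.4 at 2 h, and 328.1, 326.8, and 317.2 at 12 h. In this line the 0.5 h cultures stood apart from all others, and the 2 h cultures overlapped those at 0 h. By edgeR's test, SESN2 rose in MB468 by a log2 fold change of 2.85 ± 0.0906 (SE; adjusted p = 8.93e-26) at 0.5 h and 3.05 ± 0.0888 (adjusted p = 7.02e-28) at 12 h, or 7.19- and 8.30-fold. At 2 h the rise was 2.29 ± 0.0938 (adjusted p = 1.21e-21 from edgeR). Without MB468 2 h replicate 2 that rise was 2.25 (adjusted p = 3.58e-19 from edgeR).

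In MB468res-R8, SESN2 rose by 1.51 ± 0.0842 (SE; adjusted p = 5.49e-18 from edgeR) at 0.5 h, 2.85-fold, and was then close to its start. At 2 h the log2 change was 0.07 (95% interval −0.11 to 0.25, adjusted p = 0.847 from edgeR) and at 12 h −0.17 (−0.35 to 0.01, adjusted p = 0.113), although the 12 h cultures did not overlap those at 0 h. The lines were compared by subtracting the MB468 response from that of MB468res-R8, which gave −1.34 ± 0.125 (SE; adjusted p = 1.74e-09) at 0.5 h, −2.22 ± 0.131 (adjusted p = 4.45e-16) at 2 h, and −3.22 ± 0.129 (adjusted p = 1.43e-22) at 12 h, each from edgeR's test of the difference. At 0 h the order of the lines was the other way round, and SESN2 was 0.94 ± 0.0998 higher in MB468res-R8 (adjusted p = 1.67e-10 from edgeR). At 12 h it was 2.28 lower in MB468res-R8 on the same log2 scale. In order, the 8 group means were 1569 ± 78.36 (SD, n = 3) in MB468 at 12 h, 1364 ± 122.8 in MB468 at 0.5 h, 1040 ± 84.43 in MB468res-R8 at 0.5 h, and 930 ± 67.92 in MB468 at 2 h. Below these came 377.5 ± 59.95, 364.8 ± 11.36, and 324 ± 5.983 in MB468res-R8 at 2, 0, and 12 h, and 189.4 ± 15.52 in MB468 at 0 h. Of neighbours in this order, MB468res-R8 at 0.5 h overlapped MB468 at 2 h, and MB468res-R8 at 2 h overlapped MB468res-R8 at 0 h, while the other neighbours did not overlap.

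SESN3 (chr11:95165513-95232541, minus strand), a sestrin known as a target of FOXO factors, moved the other way at 12 h and fell in both lines. Its normalized counts in MB468 were 353.5, 368.1, and 435.6 at 0 h and 137.4, 128.4, and 145.1 at 12 h. The MB468res-R8 cultures had 405.2, 453, and 466.8 at 0 h and 235.1, 240.3, and 260.5 at 12 h. In each line all 12 h cultures lay below all earlier ones, and those of MB468 lay below those of MB468res-R8. The log2 change was −1.47 ± 0.0905 (SE; adjusted p = 7.07e-18 from edgeR) in MB468 and −0.84 ± 0.0866 (adjusted p = 5.09e-11) in MB468res-R8, and the difference of 0.63 ± 0.126 was called (adjusted p = 4e-05). Nearly all of the fall came after 2 h, since SESN3 changed by −1.56 from 2 to 12 h in MB468. Earlier changes were small, with 0.36 at 0.5 h in MB468res-R8 (adjusted p = 0.000494 from edgeR) and 0.24 in MB468 (adjusted p = 0.0206). The latter call was lost without MB468 0 h replicate 1 (0.17), 0 h replicate 2 (0.20), or 0.5 h replicate 1 (0.20), and both were lost with spike-in scaling (0.40 and 0.03). The higher level in MB468res-R8 at 0 h (0.20, adjusted p = 0.0397 from edgeR) came from groups that overlapped. This call was lost without MB468 0 h replicate 1 (0.13) or 2 (0.16) or MB468res-R8 0 h replicate 2 (0.17) or 3 (0.15), and turned to −0.11 with spike-in scaling.

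SESN1 (chr6:108984309-109094846, minus strand), known as a target of p53, stayed within a narrow range. Group means lay between 166.7 ± 20.2 and 239.1 ± 23.32 normalized counts (SD, n = 3), the lowest at 2 h in both lines. No change from 0 h was called in either line by edgeR's test: at 2 h the log2 change was −0.30 (95% interval −0.54 to −0.05, adjusted p = 0.102) in MB468 and −0.35 (−0.58 to −0.12, adjusted p = 0.0929) in MB468res-R8. Either 2 h change was called once 1 library was left out (MB468 0 h replicate 1, −0.41, and MB468res-R8 2 h replicate 3, −0.44). With spike-in scaling the 2 h change in MB468 was −0.72 and was called (adjusted p = 0.000367 from edgeR). From 2 to 12 h SESN1 rose by 0.53 in MB468res-R8, and the rise of 0.27 in MB468 (adjusted p = 0.0414 from edgeR) lost its call without any single one of the 6 libraries compared (0.19 to 0.30). No difference between the lines in the response of SESN1 was called, with values of 0.02 (−0.30 to 0.34), −0.06 (−0.39 to 0.28), and 0.20 (−0.12 to 0.51) at 0.5, 2, and 12 h.

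Levels of the 3 sestrins were compared with one another per kilobase of their main transcripts (5.664 kb for SESN1, 3.462 kb for SESN2, and 9.563 kb for SESN3). In MB468 at 0 h SESN2 made up 41.5 ± 4.27% (SD, n = 3) of the summed sestrin level, SESN3 30.5 ± 1.93%, and SESN1 28 ± 3.19%, so that no sestrin held most of it. By 12 h the share of SESN2 was 89.9 ± 0.331% and that of SESN3 2.84 ± 0.198%, while the sum went from 132.1 ± 6.53 to 504.0 ± 23.9 normalized counts per kb. MB468res-R8 started with a larger share of SESN2, 55.8 ± 1.21%, reached 75.2 ± 1.81% at 0.5 h, and was at 57.2 ± 5.15% at 2 h and 58.0 ± 1.07% at 12 h. Its sum per kb was 189.0 ± 9.72 at 0 h, 399.2 ± 24.9 at 0.5 h, 189.7 ± 14.2 at 2 h, and 161.5 ± 4.43 at 12 h. The shares are computed within each library and do not depend on how libraries were scaled, but they do depend on which transcript's length is used. From 0 to 12 h in MB468res-R8 the share of SESN3 went from 24.4 ± 1.11% to 15.9 ± 1.22% and that of SESN1 from 19.8 ± 1.18% to 26.1 ± 1.82%.

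**Figure D1:**
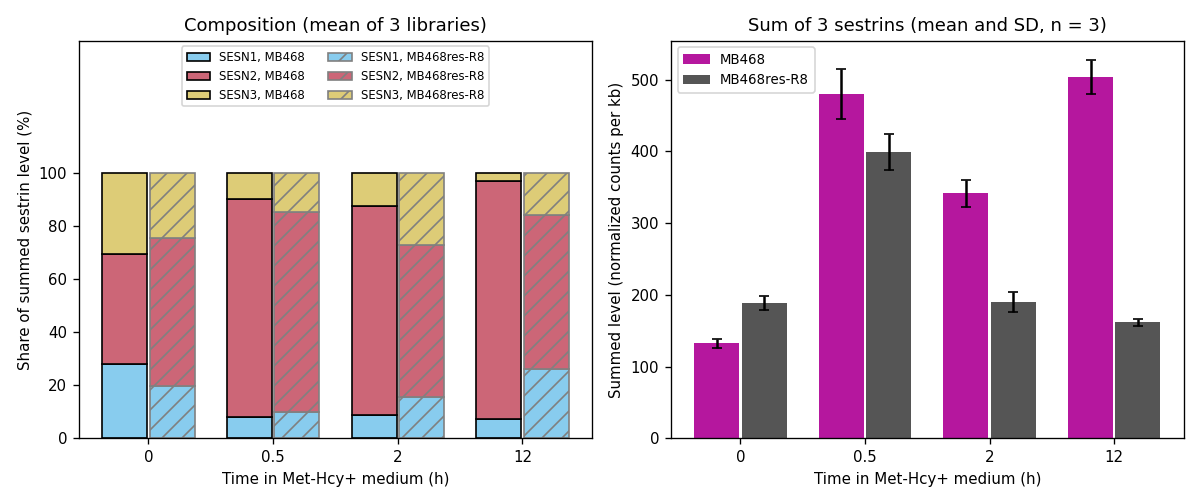
Share of each sestrin in the summed sestrin level (left, % of normalized counts per kb, mean of 3 libraries) and that sum (right, mean and SD, n = 3), by hours in Met-Hcy+ medium, for MB468 (plain bars left, magenta right) and MB468res-R8 (hatched left, gray right); SESN1 is blue, SESN2 red, and SESN3 yellow. SESN2 reached 89.9% of the sum in MB468 at 12 h and was at 58.0% in MB468res-R8.

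DDIT4 (chr10:72273919-72276036, plus strand) had the highest level per kb of the 10 genes in all 8 groups, 1795 ± 91.9 normalized counts per kb (SD, n = 3) in MB468 at 0 h, and rose at 0.5 h to overlapping levels in both lines. In MB468 the normalized counts were 3203, 2947, and 3242 at 0 h, 21940, 20540, and 24880 at 0.5 h, 10530, 12210, and 11790 at 2 h, and 14980, 15260, and 14430 at 12 h. In MB468res-R8 they were 2839, 2738, and 3264 at 0 h, 21030, 21820, and 22350 at 0.5 h, 2770, 2561, and 2669 at 2 h, and 5833, 5993, and 6054 at 12 h. The lines overlapped at 0 and 0.5 h and were far apart at 2 and 12 h. In MB468res-R8 1 of the 2 h cultures lay within the 0 h range and the other 2 just below it. By edgeR's test the log2 change at 0.5 h was 2.84 ± 0.0689 (SE; adjusted p = 6.41e-20) in MB468 and 2.89 ± 0.0692 (adjusted p = 4.9e-20) in MB468res-R8, that is 7.17- and 7.39-fold. The difference between these responses was 0.04, with a 95% interval of −0.14 to 0.23 (adjusted p = 0.912 from edgeR).

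At 2 h DDIT4 was still 1.88 ± 0.0677 above its start in MB468 (SE; adjusted p = 5.24e-16 from edgeR; 1.83 without MB468 2 h replicate 2) and −0.14 from it in MB468res-R8 (95% interval −0.28 to −0.01, adjusted p = 0.365), a difference of −2.02 ± 0.0963 (adjusted p = 3.95e-13). At 12 h DDIT4 was raised in both lines, by 2.25 ± 0.0676 (adjusted p = 4.72e-19 from edgeR) in MB468 and 1.02 ± 0.0674 (adjusted p = 4.9e-12) in MB468res-R8, with a difference of −1.23 ± 0.094 (adjusted p = 7.84e-11). MB468res-R8 thus had a rise at 0.5 h, a return by 2 h, and a further rise of 1.16 between 2 and 12 h. Over the same hours MB468 went from 11510 ± 872.9 (SD, n = 3) to 14890 ± 423.2 normalized counts, a rise of 0.37 (adjusted p = 1.63e-05 from edgeR). DDIT4 was called higher at 12 h in MB468res-R8 and SESN2 was not, but the genes were not tested against each other. At 0 h the lines did not differ in DDIT4 by this test (−0.09, adjusted p = 0.296 from edgeR), but it was called lower in MB468res-R8 without MB468res-R8 0 h replicate 3 (−0.18, adjusted p = 0.0245) and with spike-in scaling (−0.39).

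**Figure D2:**
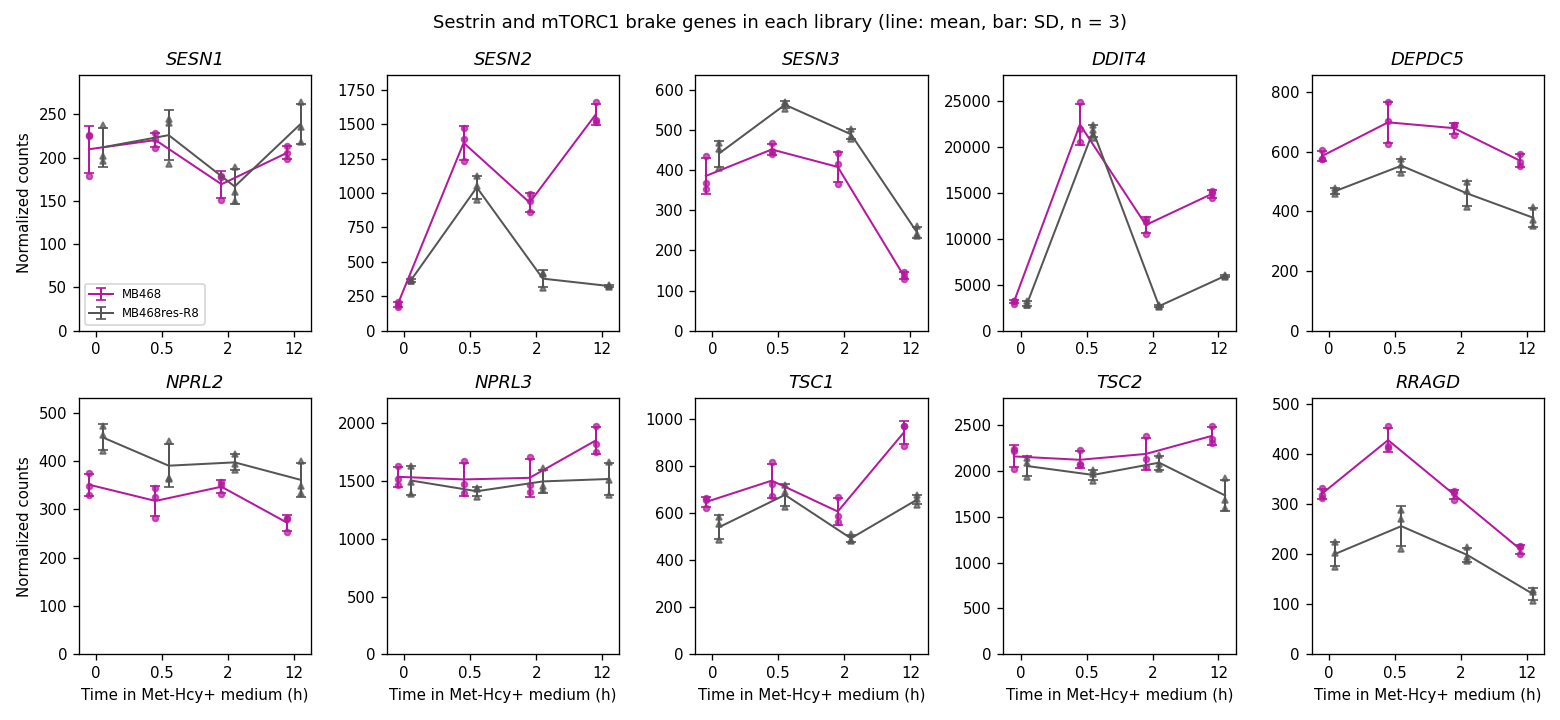
Normalized counts of each of the 10 genes (y axes from 0, 1 panel per gene) against hours in Met-Hcy+ medium (x axes, not to scale) in MB468 (magenta circles) and MB468res-R8 (gray triangles), with each of 3 cultures as a point, lines through group means, and bars of 1 SD. SESN2 and DDIT4 rose at 0.5 h in both lines and returned to near the 0 h level by 2 h in MB468res-R8, and SESN3 and RRAGD were lowest at 12 h in both.

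TSC1 (chr9:132891348-132946874, minus strand) and TSC2 (chr16:2047967-2089491, plus strand), whose products form the TSC complex with TBC1D7, changed far less. The TSC1 cultures of MB468 had 657.7, 662.1, and 621.1 normalized counts at 0 h and 886.4, 970.8, and 970.1 at 12 h, and those of MB468res-R8 had 483.7, 581.7, and 554.4 at 0 h and 675.9, 635.4, and 659.8 at 12 h. In each line all 12 h cultures lay above all 0 h cultures. The log2 change at 12 h was 0.54 ± 0.0723 (SE; adjusted p = 1.78e-08 from edgeR) in MB468 and 0.29 ± 0.0766 (adjusted p = 0.00116) in MB468res-R8. At 0.5 h TSC1 rose by 0.34 in MB468res-R8 (adjusted p = 0.000525 from edgeR), and the 0.18 in MB468 was not called (adjusted p = 0.0687), though it was without MB468 0.5 h replicate 2 (0.24). At 0 h TSC1 was 0.27 lower in MB468res-R8 (log2 −0.27, adjusted p = 0.00287 from edgeR). TSC2 went in opposite directions at 12 h. It rose in MB468 from 2158 ± 119.7 (SD, n = 3) to 2382 ± 97.38 normalized counts (0.14, adjusted p = 0.0272 from edgeR). In MB468res-R8 it fell from 2053 ± 107.4 to 1732 ± 168.5 (−0.24, adjusted p = 0.00047 from edgeR), and the difference was −0.38 ± 0.0813 (SE; adjusted p = 0.000114). The rise in MB468 was lost without any one of 5 of the 6 libraries compared, all but MB468 12 h replicate 2 (0.08 to 0.14), and was −0.10 with spike-in scaling. The 2 genes were not called at 2 h in either line, although both were lower in MB468 with spike-in scaling (−0.52 and −0.40). The 12 h calls of both genes in MB468res-R8 (0.30 and −0.23) and of the TSC2 difference (−0.14) were lost with that scaling. TSC1 shares 349 exon bases on the opposite strand with GFI1B, and TSC2 shares 784 with PKD1, and the library kit does not mark strand, so reads there cannot be assigned to 1 gene with certainty.

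The 3 GATOR1 genes each had a pattern of their own. DEPDC5 (chr22:31753867-31908033, plus strand) was 0.32 lower in MB468res-R8 at 0 h (log2 −0.32, adjusted p = 0.000392 from edgeR), with 467.9, 477.7, and 457.6 normalized counts against 574.3, 576.1, and 605.7 in MB468. It rose by 0.24 at 0.5 h in both lines (adjusted p = 0.00857 in MB468 and 0.0126 in MB468res-R8 from edgeR), calls that were lost without MB468 0 h replicate 1 (0.21) or 0.5 h replicate 3 (0.18) and without MB468res-R8 0.5 h replicate 2 (0.21), and in both lines with spike-in scaling (0.03 and 0.28). At 12 h it was 0.30 below its start in MB468res-R8 (log2 −0.30, adjusted p = 0.000906 from edgeR, not called with spike-in scaling) and at its start in MB468 (−0.03, 95% interval −0.18 to 0.11). Its rise of 0.21 at 2 h in MB468 (adjusted p = 0.0424 from edgeR) was lost without any single library of the 6, at 0.19 to 0.23, among them MB468 2 h replicate 2 (0.20), and was −0.21 with spike-in scaling.

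NPRL2 (chr3:50347330-50350826, minus strand) fell at 12 h by 0.37 ± 0.0901 (SE; adjusted p = 0.000445 from edgeR) in MB468 and by 0.32 ± 0.0886 (adjusted p = 0.00181) in MB468res-R8 on the log2 scale. The difference between these falls was 0.04 (95% interval −0.20 to 0.29, adjusted p = 0.792 from edgeR). The call in MB468res-R8 was lost with spike-in scaling (−0.29). Its cultures had 374.2, 349, and 328.8 normalized counts at 0 h and 282.2, 252.4, and 280.7 at 12 h in MB468, and 472.6, 454.2, and 419.7 at 0 h and 347.8, 400.8, and 334.2 at 12 h in MB468res-R8, so the times did not overlap in either line. NPRL2 was higher in MB468res-R8 both at 0 h (0.36, adjusted p = 0.000824 from edgeR, and 0.04 with spike-in scaling) and at 12 h (0.40, adjusted p = 0.000137). The change at 0.5 h in MB468res-R8 (−0.21, adjusted p = 0.0642) was called without MB468res-R8 0.5 h replicate 3 (−0.31) or 0 h replicate 3 (−0.25). NPRL3 (chr16:84271-138677, minus strand) rose at 12 h in MB468, from 1537 ± 85.36 (SD, n = 3) to 1851 ± 116.6 normalized counts (0.27, adjusted p = 0.00277 from edgeR, and 0.02 with spike-in scaling), and was at 1505 ± 121.5 and 1518 ± 141.5 in MB468res-R8 (0.01, 95% interval −0.14 to 0.17). It shares 451 exon bases, 7.018% of its exons, with MPG on the opposite strand. Per kb of main transcript, NPRL3 had 491.4 ± 27.2 normalized counts in MB468 at 0 h, NPRL2 227.4 ± 14.8, and DEPDC5 89.31 ± 2.69, and this order was the same in all 8 groups.

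RRAGD (chr6:89364616-89412273, minus strand) encodes a Rag GTPase and is known as a target of the MiT/TFE factors. It was lower in MB468res-R8 at 0 h, with 203, 174.5, and 223.6 normalized counts against 318.5, 331.5, and 312 in MB468 (log2 −0.68, adjusted p = 5.43e-07 from edgeR). At 12 h the counts were 199.8, 213.6, and 216.7 in MB468 and 106.4, 124.1, and 129.3 in MB468res-R8. All 12 h cultures lay below the 0 h cultures of the same line. RRAGD fell at 12 h by 0.61 ± 0.101 (SE; adjusted p = 1.03e-06 from edgeR) in MB468 and by 0.74 ± 0.116 (adjusted p = 6.4e-07) in MB468res-R8, and the difference of −0.13 was not called (95% interval −0.43 to 0.18, adjusted p = 0.51). At 0.5 h it had risen by 0.41 in MB468 (adjusted p = 0.000927 from edgeR) and by 0.36 in MB468res-R8 (adjusted p = 0.00791), where the groups overlapped and the call was lost without MB468res-R8 0 h replicate 2 (0.27) or 0.5 h replicate 3 (0.27). Neither 0.5 h rise was called with spike-in scaling (0.20 and 0.40). At 2 h it was back at its start in both lines (−0.01 and −0.02), although it was lower in MB468 with that scaling (−0.43).

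**Figure D3:**
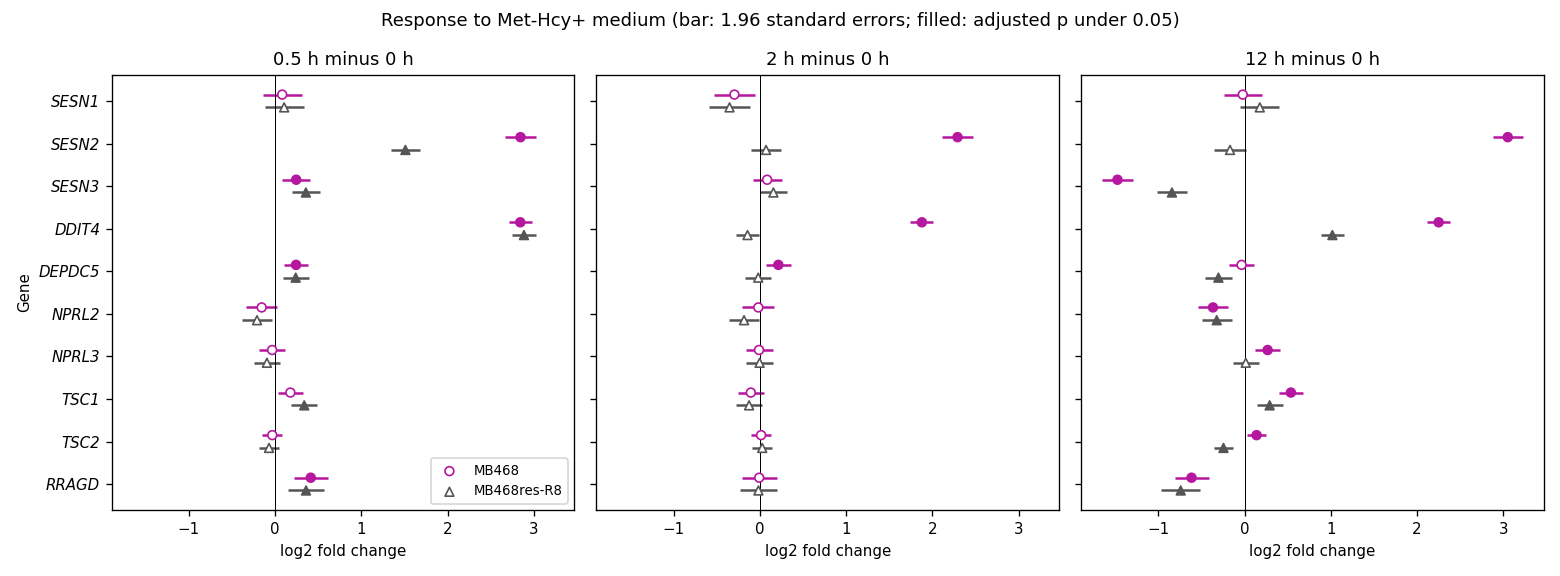
Log2 fold change from 0 h (x axis, the same in all 3 panels) of the 10 genes at 0.5, 2, and 12 h in MB468 (magenta circles) and MB468res-R8 (gray triangles), with bars for 95% intervals and filled symbols for an adjusted p under 0.05 in edgeR's test. SESN2 and DDIT4 lay at 1.51 or above in both lines at 0.5 h, at 2 h they lay at 2.29 and 1.88 in MB468 and all other values lay between −0.35 and 0.21, and at 12 h SESN3, NPRL2, and RRAGD lay below 0 in both lines.

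The counts over the 10 genes are read against the share of all 14741 genes called in the same comparison, given in parentheses in the order called, higher, lower. At 0.5 h in MB468, 5 of the 10 rose and none fell (33.9%, 17.6%, 16.4%), and in MB468res-R8 6 rose and none fell (33.7%, 17.4%, 16.3%). The median log2 change of the 10 was 0.21 against 0.01 over all genes in MB468 and 0.29 against 0.00 in MB468res-R8. At 2 h in MB468, 3 rose and none fell (16.3%, 8.88%, 7.47%), with a median of 0.00 against 0.01, and 2 rose without replicate 2. At 2 h in MB468res-R8 edgeR's test called 0 of the 10 (4.37%, 2.52%, 1.85%), 2 had an unadjusted p under 0.05, DESeq2 called 0, and 1, SESN1, was called without MB468res-R8 2 h replicate 3. At 12 h in MB468, 5 rose and 3 fell (70.8%, 36.1%, 34.7%), and in MB468res-R8 2 rose and 5 fell (61.3%, 30.2%, 31.1%), with medians of 0.06 against 0.01 and −0.21 against −0.02. These shares of all genes are high, so a count of 8 or 7 of 10 at 12 h is near the background. Changes of at least 2-fold that were called were fewer. In MB468 they numbered 2, 2, and 3 of the 10 genes at 0.5, 2, and 12 h, against 502, 250, and 2351 of all genes. In MB468res-R8 they numbered 2, 0, and 1, against 528, 57, and 1447.

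Between 2 and 12 h, 5 of the 10 genes rose and 4 fell in MB468 (69.7%, 34.6%, 35.1%), and 3 rose and 5 fell in MB468res-R8 (62.5%, 30.7%, 31.8%). SESN2 went in opposite directions over these hours, by 0.76 ± 0.0763 in MB468 (SE; adjusted p = 1.87e-11 from edgeR) and −0.24 in MB468res-R8 (adjusted p = 0.021). The latter call was lost without any one of 5 of the 6 libraries compared, all but MB468res-R8 2 h replicate 3 (−0.15 to −0.23). SESN1, DDIT4, and TSC1 rose and SESN3, DEPDC5, and RRAGD fell in both lines. The fall of DEPDC5 was not called with spike-in scaling in MB468 (−0.07) or MB468res-R8 (−0.23). The rise of SESN1 in MB468 lost its call without any single one of the 6 libraries compared. With spike-in scaling the numbers of the 10 called higher and lower in MB468 became 2 and 0 at 0.5 h, 2 and 7 at 2 h, 3 and 3 at 12 h, and 6 and 2 from 2 to 12 h. Of all genes, 22.3, 64.5, 57.4, and 56.4% were called in these comparisons with that scaling. In MB468res-R8 the numbers became 3 and 0 at 0.5 h, 1 and 2 at 12 h, and 3 and 2 from 2 to 12 h, where 13.7, 39.9, and 44.1% of all genes were called. Of all genes called in MB468, the share that was higher went with this scaling from 51.8 to 14% at 0.5 h, 54.3 to 2.52% at 2 h, 51 to 30% at 12 h, and 49.6 to 65.4% from 2 to 12 h.

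Between the lines at 0 h, 3 of the 10 genes were higher in MB468res-R8 (SESN2, SESN3, and NPRL2) and 3 lower (DEPDC5, TSC1, and RRAGD), where 53.5% of all genes were called, 26.4% higher and 27.1% lower. With spike-in scaling 1 was higher and 6 lower, where 51.8% of all genes were called, and the share of all called genes that was higher went from 49.4 to 15%. At 12 h, 2 were higher (SESN3 and NPRL2) and 7 lower (73.1%, 33.9%, 39.2%), leaving SESN1 (0.21, adjusted p = 0.0874 from edgeR), which was called higher without MB468res-R8 12 h replicate 3 (0.30). The largest of these 12 h differences on the log2 scale were −2.28 for SESN2, −1.32 for DDIT4, 0.83 for SESN3, and −0.81 for RRAGD, and their size includes what already differed at 0 h.

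The difference between the lines in the response, which removes the 0 h difference, was called for 1 of the 10 genes at 0.5 h, SESN2 (2.9% of all genes, 1.2% higher and 1.7% lower), and for 2 at 2 h, SESN2 and DDIT4 (5.07%, 2.19%, 2.88%). Both also passed at 12 h, where 1 gene, SESN3, was called higher and 6 lower (56.5%, 26.2%, 30.3%). The median difference of the 10 at 12 h was −0.25 against −0.05 over all genes, and with spike-in scaling, where the median over all genes was 0.20 and 39.3% of all genes were called, 1 was called higher and 2 lower. That scaling took the share of all called differences that was higher from 41.4 to 79.2% at 0.5 h, 43.2 to 93% at 2 h, and 46.3 to 69.9% at 12 h. SESN2, SESN3, DDIT4, and TSC2 passed without each single library in turn. The other 3 differences were near the threshold in edgeR's test: DEPDC5 (−0.27 ± 0.106, SE, adjusted p = 0.0287), NPRL3 (−0.25 ± 0.108, adjusted p = 0.0491), and TSC1 (−0.25 ± 0.105, adjusted p = 0.0441). DEPDC5 was lost without any one of 9 of the 12 libraries compared (−0.18 to −0.25), all but MB468 12 h replicates 2 and 3 and MB468res-R8 12 h replicate 1. NPRL3 was lost without any of 10 (−0.15 to −0.26), all but MB468 12 h replicate 2 and MB468res-R8 12 h replicate 1, and TSC1 without any of 10 (−0.14 to −0.22), all but MB468 12 h replicate 1 and MB468res-R8 0 h replicate 1. With DESeq2's size factors or its Wald test these 3 were not called, leaving 4 of the 10. The comparisons with 0 h in a line share the same 3 control cultures, so their values for a gene are not independent of one another.

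**Figure D4:**
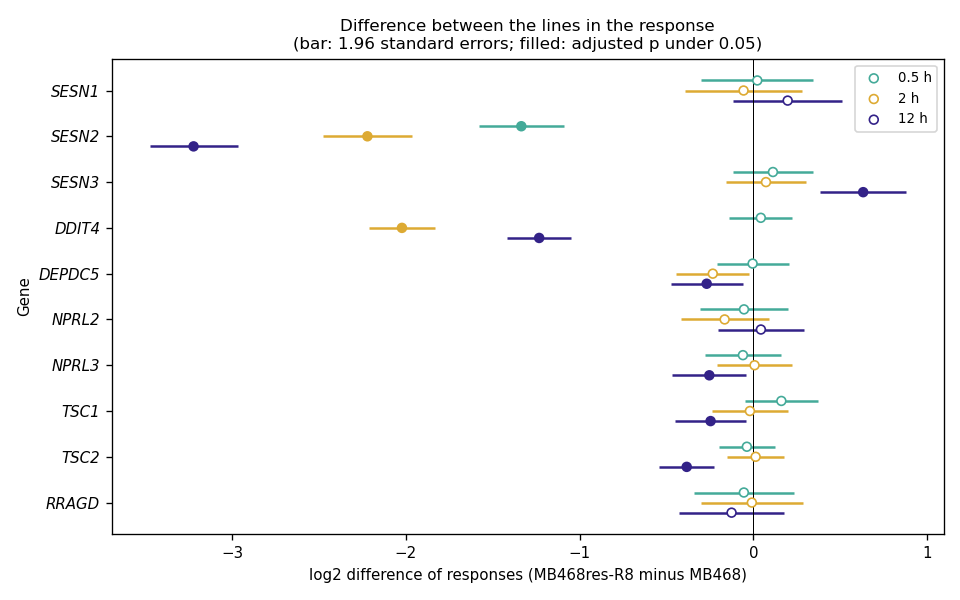
Difference between the lines in the response (x axis, log2, MB468res-R8 minus MB468) for the 10 genes at 0.5 h (green), 2 h (yellow), and 12 h (dark blue), with bars for 95% intervals and filled circles for an adjusted p under 0.05 in edgeR's test. SESN2 lay further below 0 at each later time (−1.34, −2.22, and −3.22), DDIT4 was at 0.04 at 0.5 h and below −1 later, and RRAGD, NPRL2, and SESN1 were not called at any time.

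Of 60 further genes around mTORC1 in 9 lists, 59 were tested, and the TXNIP entry was listed at 0 in every library. At 2 h, 7 rose and 4 fell in MB468, where 8.88% of all genes rose and 7.47% fell, and 1 fell in MB468res-R8, where 2.52% rose and 1.85% fell. At 12 h, 25 rose and 20 fell in MB468, with a median log2 change of 0.02, and 13 rose and 16 fell in MB468res-R8, with a median of −0.03. Of all genes, 36.1% rose and 34.7% fell at 12 h in MB468, and 30.2% and 31.1% in MB468res-R8. The response at 12 h differed between the lines for 36, of which 26 were lower in MB468res-R8 and 10 higher, with a median of −0.16 against −0.05 over all genes. The total is near the background, since 56.5% of all genes were called for this difference. By direction, the calls leaned further to lower than those of all genes, 30.3% lower and 26.2% higher. With spike-in scaling 18 of the 59 were called, where 39.3% of all genes were. TFE3 and TFEB are named below only beside MITF, and DDIT4L only as the DDIT4 paralog of its list. The other named genes below changed by at least 2-fold with a call at 12 h or had the smallest p of their list there. Their 12 h values are log2 changes from 0 h by edgeR's test, first in MB468 and then in MB468res-R8.

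Among the GATOR2 genes, which restrain GATOR1, 2 of 5 rose and 1 fell in either line at 12 h. Of all genes, 36.1% then rose and 34.7% fell in MB468, and 30.2% rose and 31.1% fell in MB468res-R8. WDR24 rose in MB468 from 552.6 ± 22.45 (SD, n = 3) to 1417 ± 61.18 normalized counts (1.36, adjusted p = 2.42e-19 from edgeR). In MB468res-R8 it had 642.2 ± 36.39 and 579.1 ± 71.21 (−0.14, adjusted p = 0.119 from edgeR, called without MB468res-R8 12 h replicate 1 at −0.21). The difference was −1.50 (adjusted p = 4.43e-15 from edgeR). SEH1L, also a nuclear pore protein, had −0.10 (adjusted p = 0.056 from edgeR) and 0.44 (adjusted p = 4.81e-10). The value in MB468 was called by DESeq2 (−0.13) and without MB468 0 h replicate 3 (−0.15) or 12 h replicate 2 (−0.14). Of the KICSTOR genes, whose products hold GATOR1 at the lysosome, 2 of 4 rose and 1 fell in MB468 and 1 rose and 2 fell in MB468res-R8. C12orf66 (KICS2) rose from 131.4 ± 11.57 to 303.2 ± 6.534 in MB468 (1.21, adjusted p = 1.36e-12 from edgeR) and had 200.9 ± 14.2 and 179.5 ± 18.47 in MB468res-R8 (−0.16), a difference of −1.38 (adjusted p = 1.25e-09). ITFG2 rose in both lines (0.79 and 0.49, adjusted p = 2.46e-08 and 0.000269 from edgeR).

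Of the sensors, 2 of 6 rose and 3 fell in MB468 and 2 fell in MB468res-R8. The shares of all genes at 12 h were 36.1% higher and 34.7% lower in MB468, and 30.2% and 31.1% in MB468res-R8. GATSL3 (CASTOR1), a sensor of arginine, fell in both lines. It had 77.57 ± 8.974 (SD, n = 3) normalized counts at 0 h and 47.56 ± 6.6 at 12 h in MB468 (−0.71, adjusted p = 0.000124 from edgeR), and 169.0 ± 7.748 and 41.9 ± 0.3185 in MB468res-R8 (−2.01, adjusted p = 2.02e-14). The difference of −1.30 was called (adjusted p = 3.91e-06 from edgeR). C7orf60 (SAMTOR), a sensor of S-adenosylmethionine, the methyl donor made from Met, rose in MB468 from 148.1 ± 25.35 to 291.4 ± 20.32 (1.0, adjusted p = 1.12e-08 from edgeR). In MB468res-R8 it went from 89.37 ± 5.179 to 111.8 ± 20.75 (0.32, adjusted p = 0.0745, called without MB468res-R8 12 h replicate 1 at 0.49), with a difference of −0.68 (adjusted p = 0.00423) that was not called with spike-in scaling (−0.40). Of the Rag, Ragulator, and folliculin genes, 5 of 11 rose and 4 fell in MB468 and 3 rose and 1 fell in MB468res-R8. RRAGC, the close relative of RRAGD, rose in MB468 from 1134 ± 38.8 to 3214 ± 247.8 normalized counts (1.51, adjusted p = 2.1e-25 from edgeR) where RRAGD fell, and had a small rise in MB468res-R8 (0.18, adjusted p = 0.00499, lost with spike-in scaling), a difference of −1.32 (adjusted p = 8.21e-18). FNIP1, a partner of folliculin, rose in both (0.63 and 0.51, adjusted p = 3.26e-09 and 6.02e-07).

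Genes of mTORC1 itself, RHEB, and TBC1D7 changed little from 0 to 12 h: 2 of 7 rose and 2 fell in MB468 and 1 fell in MB468res-R8. The 12 h shares of all genes were 36.1% higher and 34.7% lower in MB468, and 30.2% and 31.1% in MB468res-R8. Levels of these 7 genes were not alike in the lines. At 0 h, 2 of the 7 were higher in MB468res-R8 and 2 lower, with log2 differences from −1.05 to 1.04. Of all genes, 26.4% were higher and 27.1% lower. MLST8 rose in MB468 (0.29, adjusted p = 0.000127 from edgeR, 0.05 with spike-in scaling) and had −0.02 in MB468res-R8, a difference of −0.31 that was lost without MB468res-R8 12 h replicate 2 (−0.21, adjusted p = 0.0513). With spike-in scaling this difference was −0.06 and was not called. RPTOR, which recruits substrates, had 0.15 (adjusted p = 0.009 from edgeR) and −0.17 (adjusted p = 0.00674). The first call was lost without MB468 0 h replicate 2 (0.11) or 12 h replicate 3 (0.13), and was −0.083 with spike-in scaling. The second was lost without MB468res-R8 0 h replicate 2 (−0.12), 12 h replicate 2 (−0.11), or 12 h replicate 3 (−0.13), and with spike-in scaling. Of the AMPK genes and STK11, 4 of 7 rose and 2 fell in MB468 and 3 rose and 1 fell in MB468res-R8. PRKAG2, a regulatory subunit of AMPK, fell in both (−0.71 and −0.86, adjusted p = 1.22e-15 and 1.19e-16 from edgeR). Of the mTORC1 substrates, 2 of 6 rose and 3 fell in MB468 and 1 rose and 2 fell in MB468res-R8. Between the lines at 0 h, 1 of these 6 was higher in MB468res-R8 and 3 lower, with log2 differences from −6.56 to 0.15. ULK1, a kinase that starts autophagy, fell from 1200.0 ± 28.16 (SD, n = 3) to 735.9 ± 25.3 normalized counts in MB468 (−0.70, adjusted p = 1.99e-10 from edgeR). In MB468res-R8 it fell from 1019 ± 117.1 to 383.9 ± 29.37 (−1.40, adjusted p = 9.35e-17 from edgeR). EIF4EBP2 fell in MB468 (−0.39, adjusted p = 3.25e-12 from edgeR) and had 0.04 in MB468res-R8.

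Of 10 transcription factors known to act on one or more of the described genes, 5 rose and 2 fell in MB468 at 12 h. In MB468res-R8, 2 rose and 5 fell. Of all genes, 36.1% rose and 34.7% fell in MB468, and 30.2% rose and 31.1% fell in MB468res-R8. DDIT3 (CHOP) had 80.9 ± 10.74 (SD, n = 3), 324.8 ± 42.85, 268.1 ± 6.389, and 430.6 ± 18.39 normalized counts at 0, 0.5, 2, and 12 h in MB468 and 101.1 ± 10.13, 294.8 ± 11.44, 103.1 ± 12.23, and 118.7 ± 16.86 in MB468res-R8. Its 12 h changes were 2.39 (adjusted p = 5.31e-21 from edgeR) and 0.23 (adjusted p = 0.127, called without MB468res-R8 12 h replicate 2 at 0.35), with a difference of −2.17 (adjusted p = 1.16e-13). MITF, of the MiT/TFE family that acts on RRAGD, rose from 132.4 ± 16.46 to 536.3 ± 46.86 in MB468 (2.00, adjusted p = 6.2e-19 from edgeR). In MB468res-R8 its change was 0.53 (adjusted p = 0.000176 from edgeR), from 175.1 ± 16.47 to 251.7 ± 24.67. Of the same family, TFE3 had 2089 ± 128.1 at 0 h and 2197 ± 65.4 at 12 h in MB468, and TFEB 434.8 ± 32.5 and 578.3 ± 65.83. In MB468res-R8 TFE3 had 1845 ± 118.7 and 1551 ± 41.92, and TFEB 219.2 ± 28.06 and 187.3 ± 14.31. RRAGD fell in both lines, and a link between these factors and RRAGD was not tested. NFE2L2 had 0.00 in MB468 and fell in MB468res-R8 (−0.47, adjusted p = 4.45e-13 from edgeR). Of the list of sestrin and DDIT4 partners and a DDIT4 paralog, 1 of 3 tested rose and 2 fell in MB468. In MB468res-R8, 1 rose and 1 fell. The paralog, DDIT4L, was among those that fell in MB468, at low levels (20.14 ± 4.076 normalized counts at 0 h and 11.4 ± 4.138 at 12 h). KEAP1, which holds NFE2L2 in check, rose (0.48 and 0.23, adjusted p = 8.79e-14 and 4.17e-06 from edgeR, both lost with spike-in scaling at 0.25). SQSTM1, which binds sestrins and KEAP1, fell (−0.40 and −0.58, adjusted p = 5.38e-11 and 5.25e-15).

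**Figure D5:**
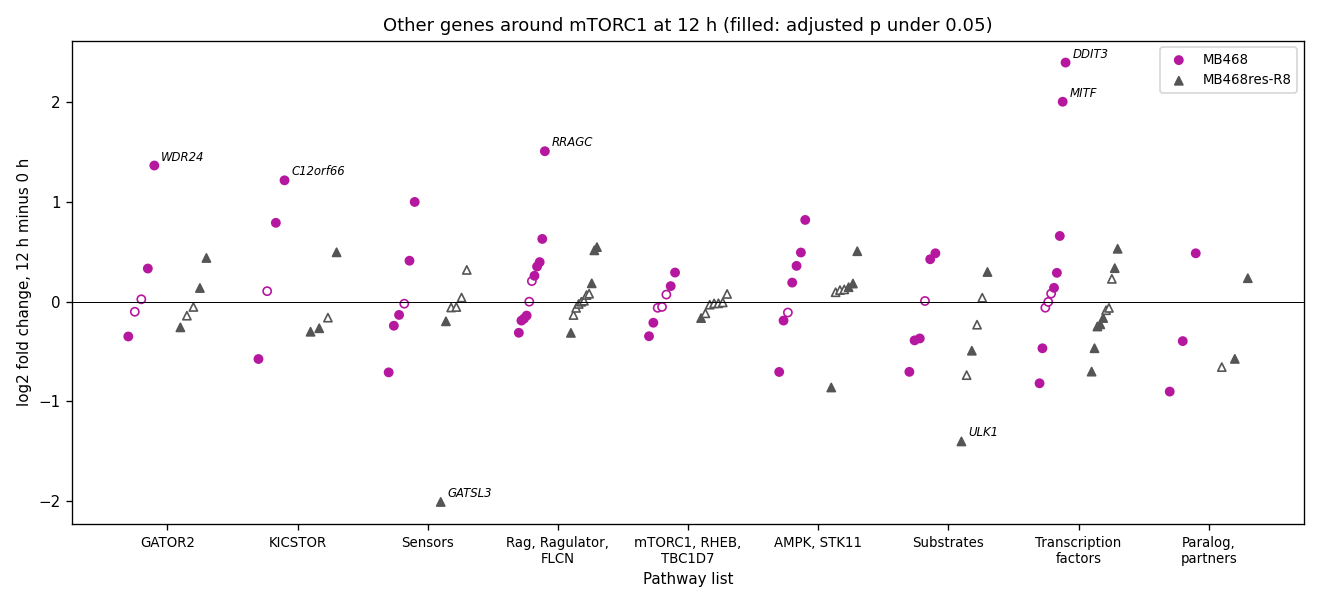
Log2 fold change from 0 h at 12 h (y axis) of the 59 tested genes around mTORC1 in 9 lists (x axis) in MB468 (magenta circles) and MB468res-R8 (gray triangles), with filled symbols for an adjusted p under 0.05 in edgeR's test and names for called changes of at least 2-fold. WDR24, C12orf66, RRAGC, MITF, and DDIT3 lay between 1.21 and 2.39 in MB468 and between −0.16 and 0.53 in MB468res-R8.

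For the 3 genes called with at least a 2-fold change from 0 h, the most similar of 10947 genes over the 24 libraries were found by Pearson's r of log2 CPM. These r describe points that share lines, times, and libraries, and have no test. For SESN2 they were CHAC1 (0.9812), DDIT3 (0.9719), and ARID5B (0.9494). CHAC1, which degrades glutathione, had log2 changes at 12 h of 4.39 in MB468 and −0.34 in MB468res-R8. SESN3 was most like METTL7A (0.9833), SLC44A1 (0.9825), and SELENBP1 (0.9814), which had lower levels at 12 h in both lines. Their log2 changes in MB468 and MB468res-R8 were −2.58 and −1.86 for METTL7A, −0.82 and −0.42 for SLC44A1 (a choline transporter), and −1.67 and −1.0 for SELENBP1. DDIT4 was most like TTBK2 (0.966), MYLIP (0.9577), and ELF3 (0.9538). The 12 h changes of these last 3 were smaller than those of DDIT4, between 0.57 and 0.76 in MB468 and between 0.32 and 0.46 in MB468res-R8.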

How the data were processed

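The 10 genes, the 9 lists, and the motifs were chosen with earlier results of these data known, so none of the results here is independent support for them. Per the methods of the study and the submitters' processing notes, the authors aligned single-end reads of poly(A) RNA (TruSeq kit v2, which does not mark strand, with ERCC spike-ins) with HISAT2 2.1.0 to a joint reference of GRCh38/hg38 and the spike-ins, and obtained gene counts with featureCounts (Subread 1.5.3). The table the authors deposited holds raw counts per gene, with no normalization. Not used were the authors' normalized table, which holds 18 of the libraries, and their table of 1 DESeq2 comparison (fold changes, errors, statistics, and p-values). The annotation release is not given in the sources used here.

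These counts were then fitted with edgeR 4.0.16 under R 4.3.3 (TMM factors, filterByExpr with a minimum count of 10 and a minimum total of 15, robust quasi-likelihood dispersions, 1 mean per group, spike-ins left out), and p-values were adjusted by Benjamini-Hochberg over all 14741 genes. Intervals are normal 95% intervals (1.96 SE) and not those of the test. At 2 h in MB468res-R8 that of DDIT4 left out 0 while its unadjusted p was 0.0504 by edgeR's test. Alternatives were DESeq2 1.42.0 (size factors and Wald test), spike-in totals as library sizes, no filter, an adjusted p of 0.01, only the groups compared, the replicate number as a block, and each library left out. The code was tested on simulated data. Libraries were grouped by their labels, which call the 3 samples of a group replicates without saying how the cultures were kept apart, so p-values measure the spread between these samples. No pair of libraries was the same within counting noise. Positions and transcript lengths come from GENCODE v44 (Ensembl canonical transcripts). Named were the 10 genes, genes of the lists by the rule given with them, and the 3 genes most like each of the 10 that changed at least 2-fold with a call (mean log2 CPM of at least 2). All 24 libraries were used, and a library of 11713037 counts measures low genes less precisely than one of 36402932.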

Additional observations from a re-analysis of the deposited data

Results flagged for a closer look

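The response differed between the lines, by edgeR's test of the difference itself, for SESN2 at all 3 times, for DDIT4 at 2 and 12 h, and for 5 further genes at 12 h. At 12 h the total of 7 of 10 genes is near the background, since 56.5% of all genes were called for this difference. SESN2 differed by −1.34 at 0.5 h, −2.22 at 2 h, and −3.22 at 12 h on the log2 scale, MB468res-R8 minus MB468. DDIT4 differed by −2.02 at 2 h and −1.23 at 12 h. At 12 h SESN3, which fell less in MB468res-R8, differed by 0.63. TSC2 differed by −0.38, DEPDC5 by −0.27, NPRL3 by −0.25, and TSC1 by −0.25 at 12 h, and these 4 were not called with spike-in scaling. DEPDC5, NPRL3, and TSC1 also lost the call with DESeq2 and without any one of 9, 10, and 10 of the 12 libraries compared, respectively. No cause of these differences was tested.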

How the results depend on the processing

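Among values of the 10 genes called either way, directions turned under 1 alternative, spike-in totals as library sizes: SESN3 at 0 h between the lines (−0.11) and at 2 h in MB468 (−0.33), DEPDC5 (−0.21) and TSC2 (−0.40) at 2 h in MB468, TSC2 at 12 h in MB468 (−0.10), and the 12 h difference of NPRL3 (0.0017). Among the further genes RPTOR at 12 h in MB468 (−0.083) and the 12 h differences of KEAP1 (0.0014) and SQSTM1 (0.077) turned with it. With this scaling the number of the 10 genes called went from 5 to 2 at 0.5 h and from 3 to 9 at 2 h in MB468, from 6 to 3 at 0.5 h, 7 to 3 at 12 h, and 8 to 5 from 2 to 12 h in MB468res-R8, and from 7 to 3 for the 12 h difference. In the same order, the share of all genes called went from 33.9 to 22.3% and 16.3 to 64.5% in MB468. It went from 33.7 to 13.7%, 61.3 to 39.9%, and 62.5 to 44.1% in MB468res-R8, and from 56.5 to 39.3% for the 12 h difference. The 12 h difference was called for 4 of the 10 genes at an adjusted p of 0.01, with DESeq2's size factors, and with its Wald test. The cause was not tested.

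Leaving out 1 library gave 3 to 6 calls at 0.5 h in MB468, 0 to 1 at 2 h in MB468res-R8, and 4 to 6 for the 12 h difference. Of single values of the 10 genes, 889 stayed on the same side of the threshold when a library was left out, 63 lost the call, and 8 gained it. On average replicate numbers did not pair the libraries, since the deviations of same-numbered libraries correlated at −0.0199 over 6391 genes. Single pairs ranged from −0.501 to 0.508, so the average does not settle each comparison. For 2 h against 0 h in MB468res-R8, same-numbered libraries correlated at 0.277 and others at −0.138. With the replicate number as a block, 0 of the 10 genes were still called there. With the replicate block, DEPDC5 at 2 h in MB468 (0.22, adjusted p = 0.0541) and the 12 h differences of NPRL3 (−0.25, adjusted p = 0.0544) and TSC1 (−0.24, adjusted p = 0.0519) lost their call in edgeR's test and TSC2 from 2 to 12 h in MB468 gained one (0.13, adjusted p = 0.0467), and no other call of the 10 genes changed. The changes of SESN2 and DDIT4 from 0 h at each time in MB468 and at 0.5 h in MB468res-R8, and those of SESN3 and RRAGD at 12 h in both lines, kept direction and call under every alternative run. Of the 59 further genes, spike-in scaling took the number called from 11 to 44 at 2 h in MB468, 29 to 15 at 12 h in MB468res-R8, 6 to 3 for the 2 h difference, and 36 to 18 for the 12 h difference. In the same order, the share of all genes called went from 16.3 to 64.5%, 61.3 to 39.9%, 5.07 to 6.32%, and 56.5 to 39.3%.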

Other observations

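Among the further genes, C7orf60 and MITF are described over time here because of their values, after these were seen. C7orf60 (SAMTOR, the sensor of S-adenosylmethionine) had 148.1 ± 25.35 (SD, n = 3), 267.1 ± 50.7, 159.8 ± 20.27, and 291.4 ± 20.32 normalized counts at 0, 0.5, 2, and 12 h in MB468. In MB468res-R8 it had 89.37 ± 5.179, 191.8 ± 6.701, 92.9 ± 11.85, and 111.8 ± 20.75. It rose at 0.5 h in both lines, by 0.90 in MB468 (adjusted p = 8.77e-07 from edgeR) and 1.10 in MB468res-R8 (adjusted p = 8.56e-08), and was not called at 2 h in either (0.12 and 0.03). The difference between the lines was not called at 0.5 h (0.20, adjusted p = 0.762 from edgeR) or 2 h (−0.08, adjusted p = 0.917). MITF was also raised at 0.5 h in both lines, by 0.84 in MB468 (adjusted p = 4.91e-07 from edgeR) and 0.60 in MB468res-R8 (adjusted p = 8.29e-05). At 2 h it was still raised in MB468 (0.61, adjusted p = 0.00047 from edgeR) and had 0.16 in MB468res-R8 (adjusted p = 0.655), a difference of −0.45 that was not called (adjusted p = 0.158).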
